A study of Mus musculus with 8 samples.

Results

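The distal end of mouse chromosome 3 carries a run of genes, most of which stood below the other genotypes in 1 of 4 ES cell lines, and these genes are described here one by one. The members were chosen by position and by read number: genes of GENCODE M21 that start on chromosome 3 (GRCm38) at or past base 136600000, with at least 10 reads in at least 2 of the 8 libraries. That stretch is 23.3 Mb long to the end of its last annotated gene and holds 351 annotated genes. Of these, 94 met the read number, out of 17118 genes with coordinates that met it in the whole series. The members are 75 protein-coding genes, 11 processed pseudogenes, 4 loci of GENCODE's provisional class TEC, and 1 each of an antisense RNA, a lincRNA, a snoRNA and a miRNA. The region itself was selected on the low level of its genes in the *Tbxt* delE6/+ line, so every comparison of members with that line is given as a description, with no test.

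RNA came from MK6 ES cells of the C57BL/6J mouse strain on day 1 of differentiation in N2/B27 medium, after CHIR99021, an inhibitor of the kinase GSK3 that switches on Wnt signalling. The 4 genotypes differ at *Tbxt*, the T-box gene brachyury, and were sequenced with 2 libraries each. Wild-type cells were unedited. The cells labelled delE6/delE6 lack exon 6 on both alleles, the cells labelled delE6/+ lack it on 1 allele, and the cells labelled Insert ASAY carry inserted human AluSx1 and AluY elements in the introns that flank exon 6. That insertion is on both alleles, per the study. All edited lines were made with CRISPR in cultured cells, the exon 6 deletions in feeder-free and the insertion in feeder-dependent cultures. The delE6/delE6 libraries come from different clones, and for the other lines the number of clones is not given in the sources used here, so the spread between their libraries may be technical in part.

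Genes that lie next to each other on a chromosome do not form a pathway: they share a DNA molecule, while each keeps its own promoter and its own function. The distal part of chromosome 3 is of this kind. It holds a histone variant, a general transcription factor, splicing proteins and metabolic enzymes used by nearly every cell, next to receptors, calcium-activated chloride channel regulators and guanylate-binding proteins, the interferon-inducible GTPases that act in defence against microbes inside cells. Gene counts cannot tell the 2 alleles of a gene apart.

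Library depth was 24618587 to 28445952 reads on genes. Wild-type cells gave 47 and 42 reads on *Tbxt*, delE6/delE6 cells 26 and 22, Insert ASAY cells 30 and 29, and delE6/+ cells 39 and 54. These totals over the whole gene are no check of an exon deletion. All 10 listed ES cell and pluripotency markers were detected, with a summed level between 652 and 1341 CPM (counts scaled to a common library total after TMM normalization), while the 6 primitive streak genes summed to between 12.8 and 26.4 CPM and the 8 fibroblast genes, which would mark feeder cells, to between 15.2 and 30.8 CPM. Pluripotency genes summed to 1297 and 1341 CPM in wild-type and to between 652 and 907 CPM in the 6 edited libraries. *Dppa5a* alone went from 561 and 528 CPM in wild-type to between 170 and 288 CPM in the edited libraries. The markers did not all go this way. *Sox2* had 117 and 109 CPM in delE6/+ against 71.2 and 66.2 in wild-type, and *Zfp42* was higher in delE6/delE6 and Insert ASAY than in wild-type. The part of these differences in the results was not tested.

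Of the 65 members averaging 2 CPM or more, 52 stood lower in both delE6/+ libraries than in the other 6, and 13 overlapped them. Of all 12837 genes at this level, 20.5% lay below the other 6 libraries and 21.6% above. The region was selected on its delE6/+ values, so the count is a description. In RNA from whole cultures, fewer cells of a type and less RNA per cell cannot be told apart. Over these 65 members the median level relative to the wild-type mean was -0.61 and -0.57 on the log2 scale in delE6/+ replicates 1 and 2. It was 0.0553 and 0.0752 in the delE6/delE6 libraries and -0.0207 and 0.0359 in the Insert ASAY libraries, as the plot of the members by library shows. The members together held 4991 ± 26.8 CPM in wild-type, 4900 ± 220.0 CPM in delE6/delE6, 4125 ± 47.0 CPM in Insert ASAY and 3047 ± 26.1 CPM in delE6/+ (mean ± SD, n = 2 each), and the delE6/+ sum was 0.61 of that in wild-type. A single member, *Ccn1*, made most of the gap between Insert ASAY and wild-type. Without it the sums were 4019 ± 15.5, 4189 ± 32.6, 3918 ± 7.35 and 2726 ± 16.9 CPM in the same order, and the delE6/+ sum was 0.678 of that in wild-type.

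**Figure D1:**
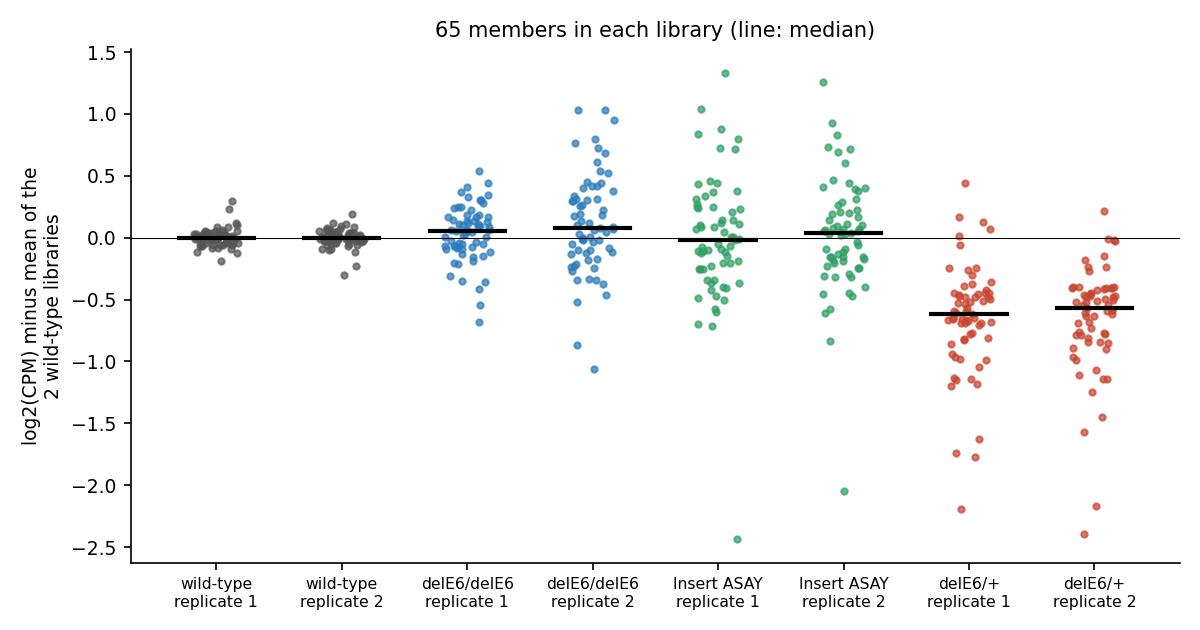
Level of the 65 members averaging 2 CPM or more in each of the 8 libraries, as log2(CPM) minus the mean of the 2 wild-type libraries. Each point is 1 member and each line the median, which lies at -0.61 and -0.57 in the delE6/+ libraries and between -0.0207 and 0.0752 in the other 6.

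Of the 93 members that passed the filter on low counts, 80 had a negative log2 fold change in delE6/+ against wild-type, with a median of -0.57, or 0.672 of the wild-type level. *Clca3a2*, with at most 11 reads in a library, was the member that did not pass. A gene was called when edgeR's quasi-likelihood test gave a Benjamini-Hochberg adjusted p under 0.05 and its log2 fold change was past 0.5 in size. In delE6/+ against wild-type 46 members were called lower and 0 higher, where 6.89% of the 17049 tested genes were called lower and 6.60% higher. Against delE6/delE6 the median was -0.69, with 53 members called lower and 1, the pseudogene *Gm16060*, higher (all genes: 11.0% and 11.2%), and against Insert ASAY it was -0.60, with 46 lower and 3, *Ccn1*, *Ak5* and *Lhx8*, higher (all genes: 14.6% and 13.0%). Since these contrasts chose the region, the counts support nothing about it. The medians over all tested genes were -0.000586, 0.00582 and -0.00291 in the same order. DESeq2 also called 0 members higher in delE6/+ against wild-type, and 1 member, *Col24a1*, a collagen gene under 2 CPM at 0.69 ± 0.308 (SE), was higher at an unadjusted p under 0.05 in edgeR.

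Of 61 protein-coding members at 2 CPM or more, 42 had a log2 fold change between -1 and -0.4, 11 lay below -1 and 8 above -0.4. The quartiles were at 0.571 and 0.724 of the wild-type level. In 52 of the 65 members of at least 2 CPM both delE6/+ libraries lay below all 6 others, in 13 the groups overlapped, and in 0 both lay above. The rule used this contrast, so the counts are a description. Among all 12837 genes at this level the shares were 20.5% below and 21.6% above. The log2 fold changes of the 52 ran from -2.29 to -0.39, and 36 of them passed both thresholds, so the other 16 missed the fold of 0.5 or the adjusted p although their libraries did not overlap with any other.

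The region was selected on its delE6/+ values, so the place where low values begin is no finding. The first member is *Ppp3ca*, the catalytic subunit of the calcium-activated phosphatase calcineurin (3: 136670124 to 136937727, plus strand). It had 71.6 and 70.9 CPM in wild-type, 76.9 and 66.5 in delE6/delE6, 51.4 and 57.5 in Insert ASAY and 59.4 and 60.5 in delE6/+, so delE6/+ stood at -0.25 ± 0.073 (SE) on the log2 scale against wild-type and Insert ASAY lower still. Next came *Ddit4l* at -0.45, *H2afz* at -0.40 and *Dnajb14* at -0.39. The last tested genes before the window were *Manba*, *Oaz2-ps*, *Nfkb1* and *Slc39a8*, with log2 fold changes of 0.44, 0.33, 0.51 and 1.69. *Slc39a8*, a zinc transporter, had 2.63 and 2.20 CPM in wild-type, 2.15 and 2.27 in delE6/delE6, 2.84 and 2.27 in Insert ASAY and 9.05 and 6.50 in delE6/+. In steps of 4 Mb from the window start, the median over the protein-coding members of at least 2 CPM was -0.43 (13 genes, *Ppp3ca* to *Rap1gds1*), -0.64 (9 genes), -0.73 (17 genes), -0.74 (8 genes), -0.58 (7 genes) and -0.57 (7 genes, *Zranb2* to *Wls*). The first step, nearest to the genes with positive values, had the median closest to 0. The profile of chromosome 3 shows these steps beside the other 2 edited lines.

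**Figure D2:**
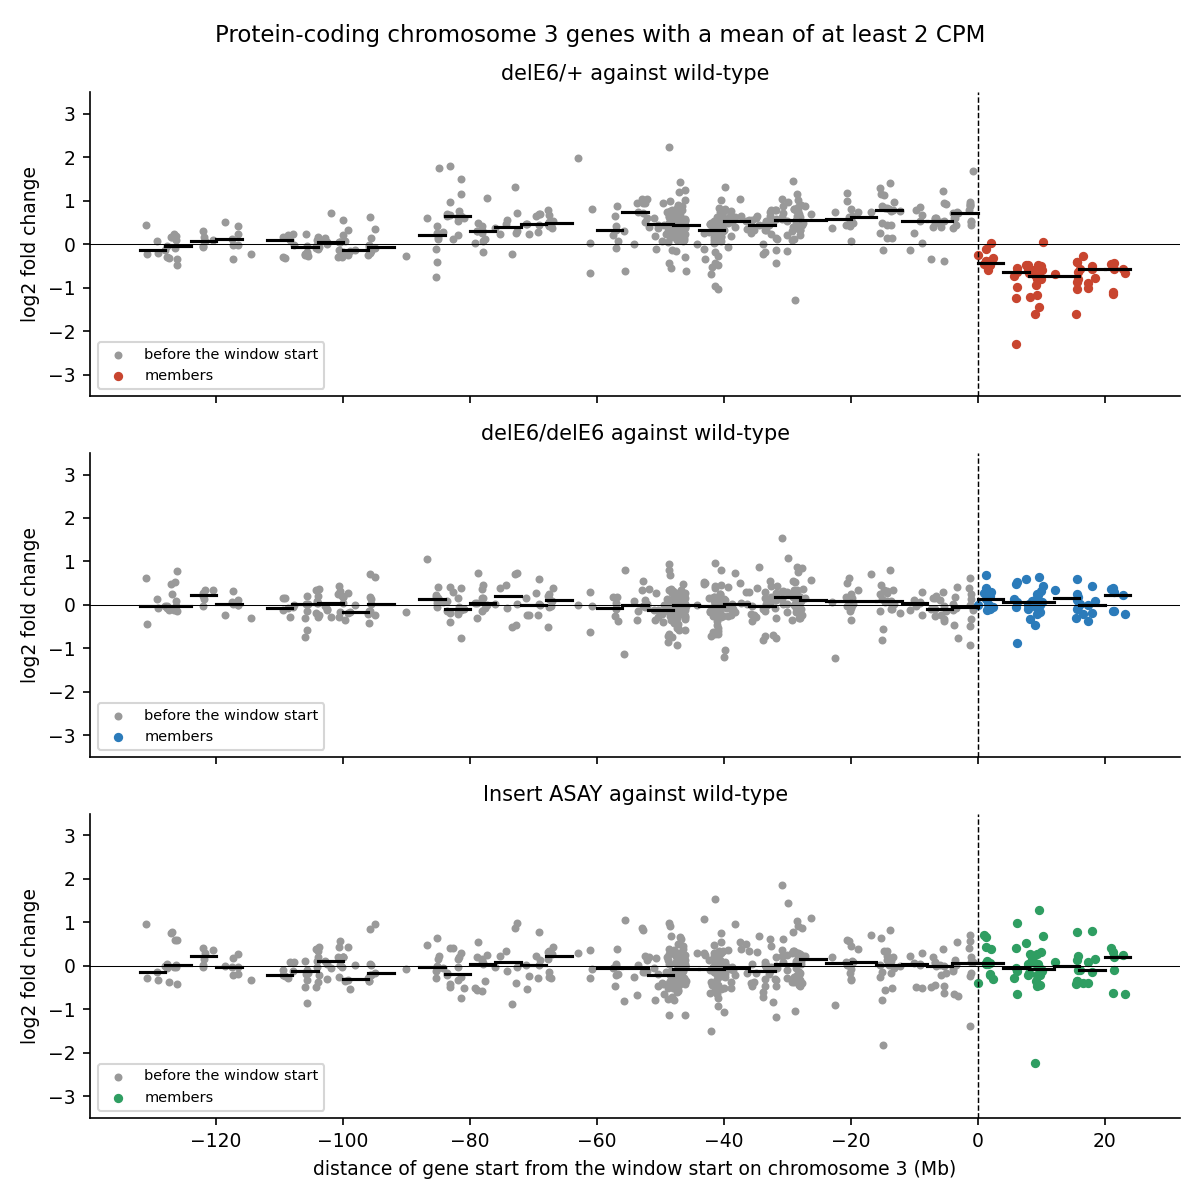
Log2 fold change against wild-type of protein-coding chromosome 3 genes averaging 2 CPM or more, by the distance of the gene start from the window start (dashed line) in Mb, with delE6/+ at the top, delE6/delE6 in the middle and Insert ASAY below. Points are genes, and black lines are medians over 4 Mb where at least 5 genes were present; in delE6/+ the medians past the window start lie between -0.74 and -0.43, with *Slc39a8* at 1.69 just before it, and most points in the 80 Mb before the window lie above 0.

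Of the 65 members, 13 did not stand apart from all other libraries, and they were of several kinds. *Tspan5*, a tetraspanin of the cell membrane (3: 138742195 to 138907905), had delE6/+ values that interleave with wild-type, between coding neighbours that were lower. It had 27.7 and 26.9 CPM in wild-type, 31 and 36.5 in delE6/delE6, 35.3 and 35.8 in Insert ASAY and 28.7 and 26.9 in delE6/+. Both of its delE6/+ libraries thus lay at the wild-type level and below the libraries of the other 2 edited lines. The delE6/+ value against wild-type was 0.02 ± 0.084 (SE) on the log2 scale. Its neighbours *Eif4e* and *Rap1gds1* stood at -0.43 and -0.32. *Ttll7*, a tubulin polyglutamylase, had 2.20 and 1.45 CPM in wild-type, 2.31 and 2.60 in delE6/delE6, 2.95 and 2.96 in Insert ASAY and 2.42 and 1.35 in delE6/+. The 2 wild-type libraries of *Ttll7* differed by 0.58 on the log2 scale, the widest wild-type gap of the 65, and its fold change of 0.05 ± 0.281 (SE) carries that spread. *Dapp1*, an adaptor that binds phosphoinositides in lymphocyte signalling, had 2.56 and 2.79 CPM in wild-type, 3.89 and 4.66 in delE6/delE6, 4.77 and 3.70 in Insert ASAY and 2.57 and 2.41 in delE6/+, so its delE6/+ libraries lay at the wild-type level and below the other 2 lines.

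In 6 more coding members the overlap came from another line that was low as well. *Wls*, the carrier that Wnt proteins need for secretion, had 134 and 135 CPM in wild-type, 126 and 107 in delE6/delE6, 82.1 and 88.2 in Insert ASAY and 83.6 and 87 in delE6/+. Its delE6/+ and Insert ASAY values interleave, and both lie below wild-type. *Ccn1*, *Kyat3*, *St6galnac3*, *Ppp3ca* and *Rap1gds1* were of the same kind, with at least 1 Insert ASAY or delE6/delE6 library at or under the delE6/+ level. *Kyat3*, an aminotransferase that makes kynurenic acid, had 9.96 and 11.2 CPM in wild-type, 6.60 and 5.06 in delE6/delE6, 7.47 and 5.93 in Insert ASAY and 4.81 and 5.89 in delE6/+. *St6galnac3*, a sialyltransferase, had 19.7 and 19.4 CPM in wild-type, 16.9 and 16.6 in delE6/delE6, 14.8 in both libraries of Insert ASAY and 15.8 and 16.6 in delE6/+. The remaining 4 of the 13 were processed pseudogenes. One of them, *Gm2451*, had the highest delE6/+ value of the 65, 0.17 ± 0.276 (SE), with 5.34 and 3.87 CPM in wild-type, 4.45 and 9.28 in delE6/delE6, 4.48 and 5.31 in Insert ASAY and 5.11 and 5.27 in delE6/+. Its delE6/+ libraries lay within the range of wild-type, and it is 99.7% identical to *Gm2574* on the same chromosome.

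At 2 CPM or more, 52 of 61 protein-coding members lay below every other library, and 0 of the 4 other members, all processed pseudogenes, did. None of the 11 processed pseudogenes did so at any level. Under 2 CPM, on few reads, non-coding members of other classes did, among them *Gm17501* and *Mir186*. The pseudogenes, intronless copies of a messenger RNA set into the genome, had a median log2 fold change of 0.17 in delE6/+ against wild-type, with 0 of 11 called by edgeR, 0 called by DESeq2 and 0 at an unadjusted p under 0.05. Processed pseudogenes on other chromosomes, 1439 of them tested, had a median of 0.068. *Rpsa-ps10*, a copy of the ribosomal protein gene *Rpsa*, had 66 and 64.9 CPM in wild-type, 63.1 and 60.4 in delE6/delE6, 63.1 and 66.3 in Insert ASAY and 71.4 and 64.9 in delE6/+. *Gm10288*, a copy of *Rpl11*, had 25 and 23.4 CPM in wild-type, 18.1 and 17.6 in delE6/delE6, 22.6 and 24.8 in Insert ASAY and 24.4 and 23.9 in delE6/+. In both, the delE6/+ and wild-type libraries overlap, and the nearest coding genes of *Rpsa-ps10*, *Adgrl2* and *Gipc2*, stood at -0.68 and -1.61. The sequence of each pseudogene was compared with all other GENCODE transcripts by blastn, and all 11 matched another gene over at least 80% of their length at 90% identity or more. *Rpsa-ps10* was 99.3% identical to *Rpsa* on chromosome 9, *Gm10288* 99.8% identical to *Rpl11* on chromosome 4, and *Rpl36a-ps2* 100% identical to *Rpl36a* on chromosome X. Those genes had log2 fold changes of -0.0528, -0.0862 and 0.0159. Reads that match both genes of such a pair can be lost or misassigned in counting, so the pseudogene counts are uncertain as a measure of this locus. The part of shared reads in these values was not tested. Of the coding members, *Clca3a2* and *Clca4b* also had such a near copy. The 12 tested members with a near copy had a median of 0.115, and the 81 without one a median of -0.59. Those 12 are the 11 pseudogenes and *Clca4b*, so this split is no observation apart from the pseudogene values above.

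**Figure D3:**
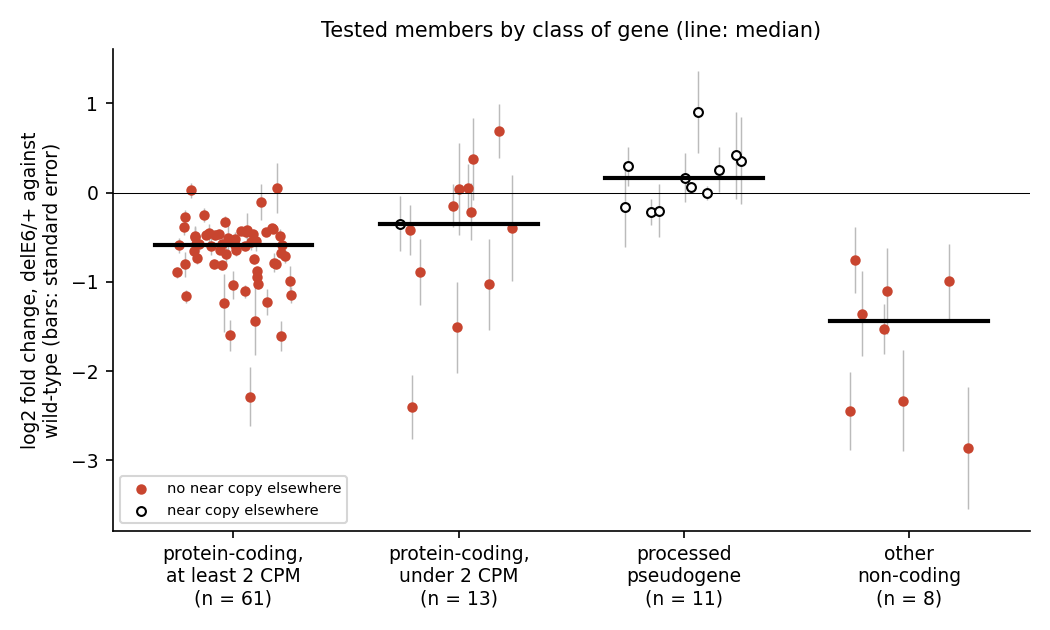
Log2 fold change in delE6/+ against wild-type of the 93 tested members, by class of gene, with bars for the standard error, a line for the median of each class and open circles for members with a near copy elsewhere. The 11 pseudogenes, all open circles, have a median of 0.17, the 61 coding members of at least 2 CPM one of -0.59, and the 8 other non-coding members one of -1.44.

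The other 8 non-coding members were the lowest as a class, on few reads. Their median was -1.44 in delE6/+ against wild-type, and all 8 values were negative. Some of the 8 met the read number for members only through libraries other than delE6/+. That favours low delE6/+ values at this depth, so nothing is read from this median or from the lowest values of these loci. *Gm17501*, a lincRNA that starts head to head with *Ccn1*, had 20 and 22 reads in wild-type, 22 and 28 in delE6/delE6, 20 and 17 in Insert ASAY and 3 and 4 in delE6/+ libraries. That is -2.44 ± 0.438 (SE) on the log2 scale for delE6/+ against wild-type. *Gm43314* (TEC) had 14 and 14 reads in wild-type, 9 and 9 in delE6/delE6, 8 and 16 in Insert ASAY and 3 and 2 in delE6/+ libraries. It lies inside *Cth* on the same strand, and 6 of the 8 lie within a coding member. Reads of an unspliced host transcript and of such a locus on the same strand cannot be told apart. The miRNA locus *Mir186*, inside *Zranb2*, had the most negative value of all members, -2.86 ± 0.681 (SE), on 16 and 9 reads in wild-type, 11 and 6 in delE6/delE6, 8 and 7 in Insert ASAY and 2 and 1 in delE6/+ libraries. Its host *Zranb2* stood at -0.46. Poly(A) libraries do not measure mature miRNAs, and these reads fall on the hairpin locus. The mature forms that the locus encodes are given from RefSeq (GRCm38.p6), 5′ to 3′, with the seed (bases 2 to 8) in capitals, since the seed is the part that pairs with targets:
mmu-miR-186-5p: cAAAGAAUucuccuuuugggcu
mmu-miR-186-3p: gCCCUAAGgugaauuuuuuggg

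By role, 68 members fell in one of 9 lists and 26 in none. The lists were drawn up for this report, and some places in them, such as that of *Ankrd13c* under cell division, are uncertain. All 10 genes of RNA processing and translation lay below every other library in delE6/+, as did 5 of 5 expressed genes of transcription and chromatin, 7 of 7 of protein folding, ubiquitin and vesicle traffic, 2 of 2 of cell division and meiosis, and 2 of 2 interferon-inducible genes. The lists with exceptions were metabolism (8 of 9), cytoskeleton, adhesion and matrix (5 of 7), glycan and lipid-anchor synthesis (2 of 3) and receptors, ligands and intracellular signalling (8 of 13). All these counts are over members of at least 2 CPM, of which 52 of 65 lay below every other library, beside 20.5% of all 12837 genes at that level. The contrast chose the region, so nothing about a role is read from them.

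**Figure D4:**
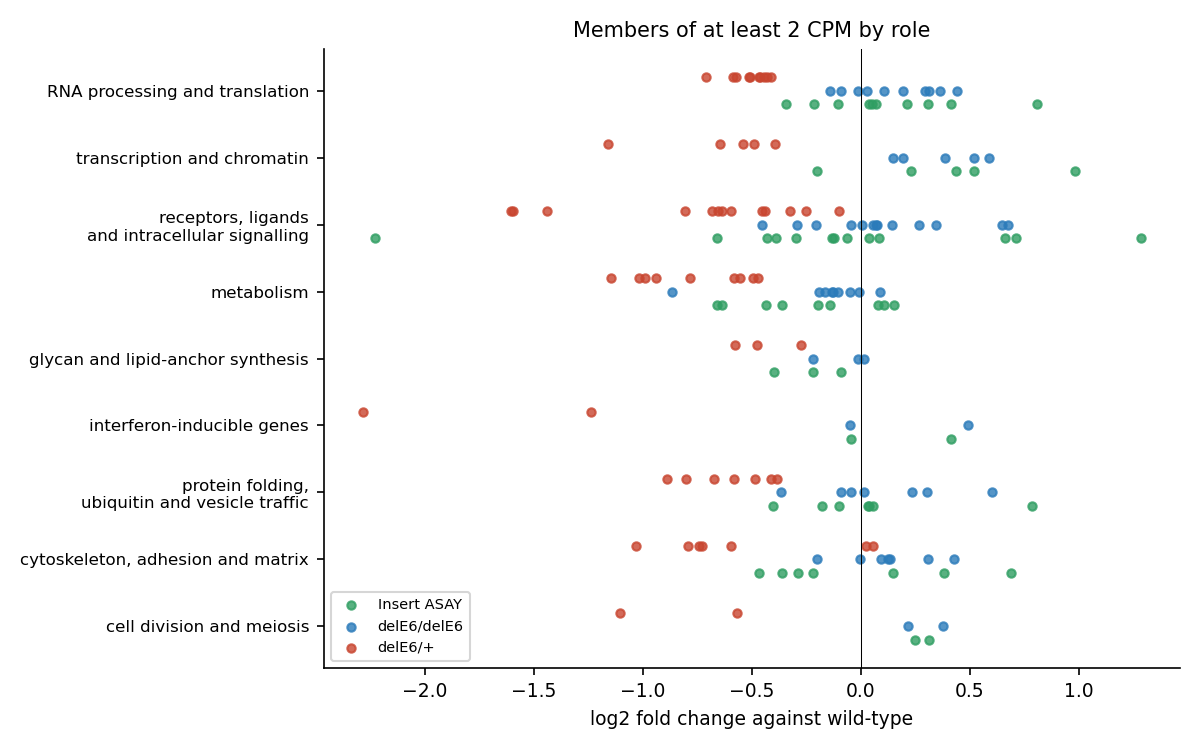
Log2 fold change against wild-type of members of at least 2 CPM, by role, in delE6/+ (top row of each role), delE6/delE6 (middle row) and Insert ASAY (bottom row). The delE6/+ points of RNA processing genes lie between -0.71 and -0.41, while the points of the other lines lie on both sides of 0 in that role.

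Among the RNA processing genes, *Fubp1* binds single-stranded DNA and RNA and had 283 and 286 CPM in wild-type, 271 and 262 in delE6/delE6, 221 and 227 in Insert ASAY and 212 and 215 in delE6/+. *Srsf11*, a serine- and arginine-rich splicing protein, had 170.5 and 164 CPM in wild-type, 150.3 and 153 in delE6/delE6, 159 and 153 in Insert ASAY and 120.2 and 126 in delE6/+. *Eif4e*, the cap-binding initiation factor of translation, had 152 and 151 CPM in wild-type, 170.4 and 177 in delE6/delE6, 161 and 157 in Insert ASAY and 111 and 114 in delE6/+. The log2 fold changes of *Fubp1*, *Srsf11* and *Eif4e* in delE6/+ were -0.41, -0.44 and -0.43, so none of the 3 reached the fold threshold, although the groups did not overlap. In *Fubp1* the Insert ASAY libraries lay close above delE6/+. Of the 10 genes of the list, 4 were called lower in delE6/+, beside 46 of all 93 tested members and 6.89% of all tested genes, and nothing is read from that count. The most negative was *Znhit6*, an assembly factor of small nucleolar ribonucleoproteins, at -0.71 ± 0.082 (SE). The 10 values ran from -0.71 to -0.41.

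In the transcription list, *H2afz* encodes the histone variant H2A.Z and, per kilobase of exon, was the second most abundant member after *Ccn1*. It had 344 and 337 CPM in wild-type, 433 and 455 in delE6/delE6, 468 and 453 in Insert ASAY and 259 in both libraries of delE6/+. Its log2 fold changes against wild-type were -0.40 in delE6/+, 0.38 in delE6/delE6 and 0.44 in Insert ASAY, none of them past 0.5, and the wild-type libraries lay between the 2 sets. *Zzz3*, a zinc finger protein of a histone acetyltransferase complex, had 78.6 and 75.7 CPM in wild-type, 83.5 and 92.7 in delE6/delE6, 91.7 and 89.2 in Insert ASAY and 49 and 49.7 in delE6/+. *Bcl10*, an adaptor of NF-κB signalling in lymphocytes, had 43.8 and 43.1 CPM in wild-type, 46.7 and 49.5 in delE6/delE6, 36.5 and 39.1 in Insert ASAY and 19.2 and 19.7 in delE6/+. Its delE6/+ value of -1.16 ± 0.070 (SE) on the log2 scale was the most negative of this list. *Gtf2b*, the general initiation factor TFIIB, had 17.6 and 16.9 CPM in wild-type, 21.7 and 27.7 in delE6/delE6, 35.4 and 32.8 in Insert ASAY and 11.9 and 11.8 in delE6/+, and wild-type stood between delE6/+ and the other 2 lines.

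The 13 signalling genes at 2 CPM or more ran from -1.61 to -0.10 on the log2 scale in delE6/+ against wild-type. *Pkn2*, a serine and threonine kinase, had 173 and 160.2 CPM in wild-type, 173 and 174 in delE6/delE6, 153 in both libraries of Insert ASAY and 106 and 109 in delE6/+, or -0.64 ± 0.049 (SE) in delE6/+ on the log2 scale. *Gipc2*, a PDZ-domain protein that binds receptors, had 7.18 and 7.82 CPM in wild-type, 5.87 and 6.34 in delE6/delE6, 5.03 and 6.11 in Insert ASAY and 2.20 and 2.74 in delE6/+, or -1.61 ± 0.165 (SE) in delE6/+. *Lpar3*, a receptor for lysophosphatidic acid, had 2.09 and 2.72 CPM in wild-type, 2.59 and 4.88 in delE6/delE6, 6.01 and 5.71 in Insert ASAY and 1.21 and 0.531 in delE6/+. The 2 delE6/+ libraries of *Lpar3* differed by 1.08 on the log2 scale, the widest gap of that genotype, and both were still below the other 6. At the other end of the list were *Dapp1* at -0.10 and *Ppp3ca* at -0.25.

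*Ccn1*, also known as *Cyr61*, encodes a secreted matricellular protein and a well-known target of the YAP and TEAD proteins. It had 942 and 1002 CPM in wild-type, 889 and 532 in delE6/delE6, 179 and 235 in Insert ASAY and 315 and 328 in delE6/+. The fold change in delE6/+ was -1.60 ± 0.174 (SE), and the Insert ASAY libraries lay lower still. The delE6/delE6 clones differed, and both lay between wild-type and delE6/+. The related gene *Ccn2*, on chromosome 10, had 163 and 154 CPM in wild-type, 134 and 62.9 in delE6/delE6, 55.3 and 61.1 in Insert ASAY and 80.5 and 76.8 in delE6/+. It too was highest in wild-type and lowest in Insert ASAY, with delE6/delE6 replicate 2 below delE6/+.

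The metabolic genes of at least 2 CPM, 9 of 11 tested in that list, all had negative values in delE6/+. *Adh5*, the glutathione-dependent formaldehyde dehydrogenase, had 277 and 278 CPM in wild-type, 271 and 246 in delE6/delE6, 240.4 and 244 in Insert ASAY and 199.9 and 200.2 in delE6/+. *Cth*, cystathionine gamma-lyase, which makes cysteine and hydrogen sulfide, had 140.3 and 142 CPM in wild-type, 146 and 112 in delE6/delE6, 87.2 and 94.5 in Insert ASAY and 63.5 and 64 in delE6/+. Its fold change was -1.15 ± 0.094 (SE), and Insert ASAY stood between wild-type and delE6/+. *Acadm*, the medium-chain acyl-CoA dehydrogenase of fatty acid oxidation, had 58.9 and 64.8 CPM in wild-type, 62.1 and 60.9 in delE6/delE6, 65.6 and 65 in Insert ASAY and 29.9 and 31.1 in delE6/+, or -1.02 ± 0.064 (SE) in delE6/+, with the other 3 lines together.

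Of the 3 detected guanylate-binding protein genes, 2 were among the members with the most negative values at 2 CPM or more. *Gbp2* had 11.1 and 12.1 CPM in wild-type, 10.00 and 22.5 in delE6/delE6, 15.1 and 15.8 in Insert ASAY and 2.54 and 2.21 in delE6/+. Its delE6/+ libraries lay at 0.205 of wild-type (log2 -2.29 ± 0.329 (SE)), and the delE6/delE6 clones differed by 1.16 on the log2 scale, the widest gap of that genotype. *Gbp7* had 2.74 and 2.57 CPM in wild-type, 1.82 and 3.26 in delE6/delE6, 2.22 and 2.93 in Insert ASAY and 0.795 and 1.47 in delE6/+, or -1.24 ± 0.324 (SE). *Gbp3* is under 2 CPM and had 34 and 52 reads in wild-type, 41 and 56 in delE6/delE6, 47 and 44 in Insert ASAY and 8 and 7 in delE6/+ libraries. All 3 lie in one cluster, and paralogues of this family can share reads. *Clca3b*, a member of the chloride channel regulator cluster, had 7.04 and 8.34 CPM in wild-type, 6.19 and 6.05 in delE6/delE6, 9.07 and 9.51 in Insert ASAY and 3.33 and 3.23 in delE6/+, or -1.23 ± 0.142 (SE) in delE6/+.

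The 7 folding and traffic genes ran from -0.89 to -0.39 in delE6/+ against wild-type. *Selenof*, a selenoprotein of the endoplasmic reticulum, had 239 and 221 CPM in wild-type, 217 and 214 in delE6/delE6, 237 and 234 in Insert ASAY and 146 and 160.4 in delE6/+. *Rabggtb*, the beta subunit of Rab geranylgeranyl transferase, had 92 and 97 CPM in wild-type, 73.8 and 72.8 in delE6/delE6, 74.6 and 68.1 in Insert ASAY and 49.3 and 52.6 in delE6/+. *Sh3glb1*, endophilin B1, had 86.3 and 91.6 CPM in wild-type, 85.7 and 93.6 in delE6/delE6, 77.3 and 79.8 in Insert ASAY and 56 and 55.5 in delE6/+. The delE6/+ values of *Selenof*, *Rabggtb* and *Sh3glb1* were -0.58, -0.89 and -0.67, and *Rabggtb* stood in the other 2 edited lines at -0.37 and -0.40. In the cytoskeletal list *Pdlim5*, which links kinases to actin, had 84 and 86 CPM in wild-type, 93.3 and 93.1 in delE6/delE6, 67.2 and 71.8 in Insert ASAY and 52.1 and 49.6 in delE6/+. *Ssx2ip*, a centrosome protein, had 50.02 and 50.6 CPM in wild-type, 48.9 and 51.3 in delE6/delE6, 44.1 and 42.4 in Insert ASAY and 29.3 and 28.7 in delE6/+. *Syde2* had 50.8 and 46.6 CPM in wild-type, 42.7 and 42 in delE6/delE6, 34.7 and 35.8 in Insert ASAY and 30.2 and 28.6 in delE6/+. The delE6/+ libraries of *Pdlim5*, *Ssx2ip* and *Syde2* lay below every other.

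*Ankrd13c* had 49.2 and 46.2 CPM in wild-type, 58.8 and 65.3 in delE6/delE6, 60.2 and 58.2 in Insert ASAY and 21.7 and 22.7 in delE6/+, or -1.10 ± 0.073 (SE) in delE6/+, and was listed with the genes of cell division. *Depdc1a*, a mitotic gene, had 17.3 and 18.3 CPM in wild-type, 20.2 and 21.2 in delE6/delE6, 22 and 20.3 in Insert ASAY and 11 and 13 in delE6/+, or -0.57 ± 0.099 (SE). Wild-type lay between delE6/+ and the other 2 lines in both genes. In the glycan list *Hs2st1*, a heparan sulfate sulfotransferase, stood at -0.48 and *Pigk*, a subunit of the GPI transamidase, at -0.58.

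**Figure D5:**
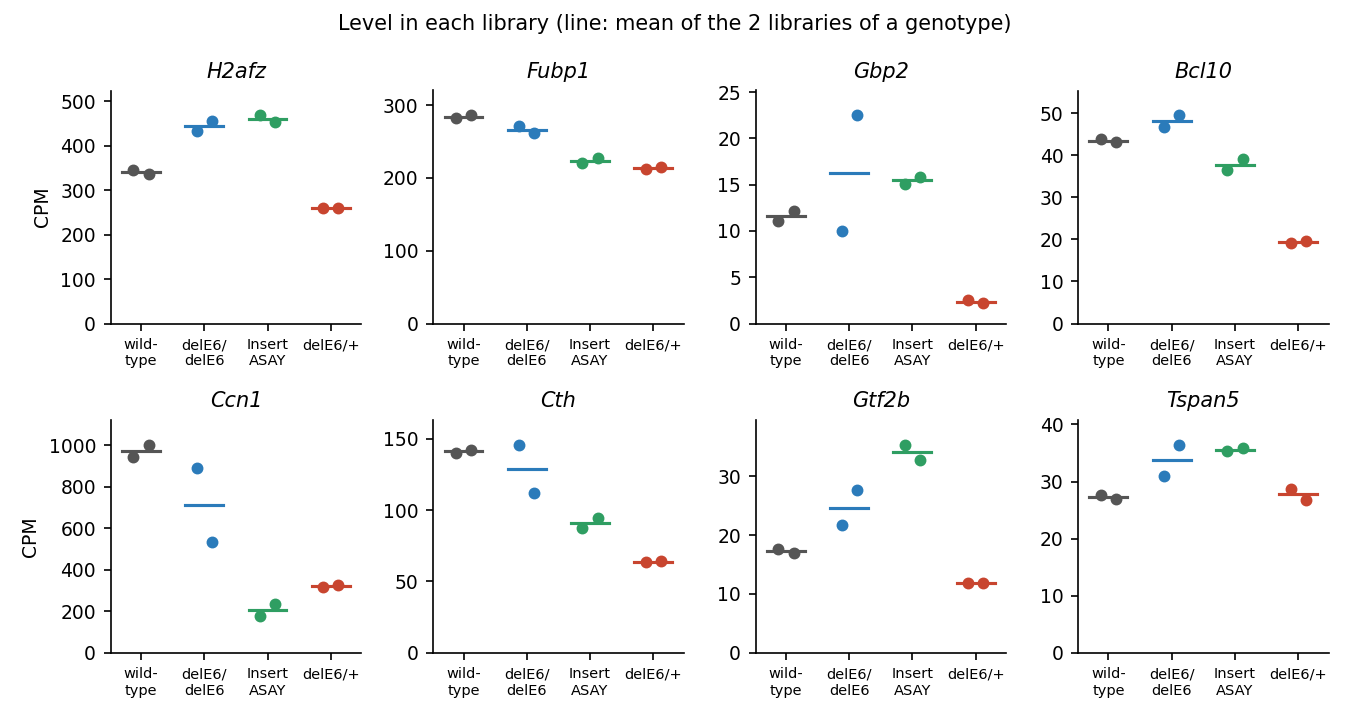
Level in CPM of 8 members in the 2 libraries of each genotype, with a line at the mean and axes that start at 0. *Tspan5* lies at wild-type values in delE6/+ (28.7 and 26.9 CPM), *Ccn1* is lowest in Insert ASAY (179 and 235 CPM), and the other 6 are lowest in delE6/+.

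Gene properties were set beside the fold changes of the 61 coding members of at least 2 CPM. Across these genes the Spearman correlation of the delE6/+ fold change was -0.29 with distance from the window start, 0.12 with mean level, 0.30 with exon length, 0.13 with gene length and -0.23 with transcript GC content. The choice of members used position and read number, and the region was itself selected on delE6/+ values, so nothing is read from the values for distance and mean level. All are descriptions over genes of the same 8 libraries, which share depth and scaling, and the genes are not independent replicates.

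Whether the members also differed between the other genotypes is a question the choice of the region did not settle, and it was tested in 3 comparisons. The first pair share the wild-type libraries with the contrast that chose the region, and with each other. In delE6/delE6 against wild-type the median over the 93 tested members was 0.0269, with 2 called lower and 5 higher by edgeR, where 6.59% of all tested genes were lower and 6.12% higher. The median over all tested genes was -0.0096, and the members' shares of calls lay under the background. *Lmo4*, a LIM-only transcription cofactor, had 18 and 15.9 CPM in wild-type, 23 and 27.9 in delE6/delE6, 23 and 25.7 in Insert ASAY and 12 and 12.1 in delE6/+ and rose by 0.59 ± 0.106 (SE) on the log2 scale (Benjamini-Hochberg adjusted p = 0.00127, edgeR). *Gtf2b* rose by 0.52 (adjusted p = 0.00258) and *Dnajb4*, a heat shock protein 40 co-chaperone, by 0.60 (adjusted p = 0.0123), while *Kyat3* fell by 0.87 (adjusted p = 0.00152, all from the same edgeR fit). The pseudogene *Gm5550* had 12 and 4 reads in wild-type, 43 and 49 in delE6/delE6, 38 and 39 in Insert ASAY and 11 and 9 in delE6/+ libraries, a rise of 2.58 (adjusted p = 0.000253, edgeR), and is 97.3% identical to *Gm6793*, so its source is uncertain. The other 2 calls were *Dapp1* at 0.68 and *Msh4*, a MutS homologue that acts in meiosis and averaged under 2 CPM, at -1.69. The count of 7 was 3 without wild-type replicate 2, 2 without delE6/delE6 replicate 2 and 15 without delE6/delE6 replicate 1. Without delE6/delE6 replicate 2, *Lmo4*, *Gtf2b*, *Dnajb4*, *Dapp1* and *Msh4* stood at 0.44, 0.33, 0.41, 0.54 and -1.47 and were no longer called. Without wild-type replicate 2, *Gtf2b*, *Dnajb4*, *Dapp1* and *Msh4* stood at 0.49, 0.51, 0.74 and -1.30 and were not called either. *Dapp1*, at 0.62, also lost its call without wild-type replicate 1.

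In Insert ASAY against wild-type the median was -0.0167 (all tested genes: -0.00514), with 7 members called lower and 10 higher, beside 9.85% and 11.5% of all genes. *Ccn1* fell by 2.23 ± 0.178 (SE) on the log2 scale (Benjamini-Hochberg adjusted p = 2.69e-06, edgeR), *Wls* by 0.66 (adjusted p = 1.29e-05) and *Cth* by 0.64 (adjusted p = 0.000116). *Gtf2b* rose by 0.98 (adjusted p = 1.33e-05, edgeR), and *Ddit4l*, an inhibitor of mTOR signalling, rose by 0.71 (adjusted p = 5.27e-05, edgeR), from 14.7 and 12.7 CPM in wild-type to 22.4 CPM in both Insert ASAY libraries. In delE6/+, *Gtf2b* and *Ddit4l* lay below wild-type. These 5 calls remained when any 1 library was left out. The count of 17 was 11 without Insert ASAY replicate 1. By role, the metabolic list had 3 genes lower and 0 higher of 11 tested, the signalling list 2 lower and 4 higher of 16, the transcription list 1 lower and 2 higher of 6, the cytoskeletal list 1 lower and 1 higher of 9, the RNA processing list 0 lower and 1 higher of 10, and the folding list 0 lower and 1 higher of 7. The glycan, interferon-inducible and cell division lists had 0 calls of 3 tested genes each.

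Insert ASAY against delE6/delE6 uses neither the wild-type nor the delE6/+ libraries, apart from the spread that all 8 libraries share in the fit. The median was -0.052 (all tested genes: 0.00948), and 3 members were called lower and 1 higher, beside 2.38% and 2.79% of all tested genes. *Ccn1* stood at -1.78 ± 0.176 (SE) on the log2 scale (adjusted p = 3.43e-05, edgeR quasi-likelihood fit), with both Insert ASAY libraries below both delE6/delE6 libraries. *Cth*, *Ak5*, an adenylate kinase, and *Clca3b* were the others, at -0.50, -0.88 and 0.60 (adjusted p = 0.00279, 0.0397 and 0.00665, all from the same edgeR fit). The count was 12 without delE6/delE6 replicate 2 and 1 without Insert ASAY replicate 1. *Clca3b* lost its call without either Insert ASAY library, at 0.64 and 0.56, and *Cth* without Insert ASAY replicate 1 (-0.45) or delE6/delE6 replicate 1 (-0.31). *Ak5*, at 64 and 43 reads in wild-type, 52 and 46 in delE6/delE6, 26 and 30 in Insert ASAY and 49 and 41 in delE6/+ libraries, lost it without either Insert ASAY library, without delE6/delE6 replicate 1 and without either delE6/+ library, at values between -0.996 and -0.734.

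Paralogues of members that lie on other chromosomes were set beside them, since they encode related proteins but lie elsewhere. Of 51 listed, 49 were tested. In delE6/+ against wild-type their median log2 fold change was -0.00681, with 3 called lower and 1 higher, where the shares of all genes were 6.89% and 6.60%. *Adgrl3* rose by 1.69 on the log2 scale (adjusted p = 5.05e-05 by edgeR's quasi-likelihood test), from 1.41 and 2.20 CPM to 5.83 and 5.76 CPM, while the member *Adgrl2*, a latrophilin as well, had 87.7 and 95.5 CPM in wild-type, 101 and 131 in delE6/delE6, 99.5 and 94.3 in Insert ASAY and 57.4 and 56.8 in delE6/+. *Pdlim7* fell by 0.52 (adjusted p = 7.70e-06), *Acadl* by 0.53 (adjusted p = 6.01e-05) and *Ccn2* by 1.01 (adjusted p = 0.00331), each Benjamini-Hochberg adjusted in the same edgeR fit. The members *Pdlim5*, *Acadm* and *Ccn1* were lower in delE6/+ too.

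Promoters were read from RefSeq (GRCm38.p6), from 250 bases before to 50 bases after the start, for the 62 members that matched by symbol. The T-box half-site AGGTGTGA, the sequence that brachyury binds, was found in 0 of the 62 and in 1.28% of 26963 other promoters. The TEAD motif GGAATG was present in 12 of 62 (19.4%, others 14.6%). The interferon gamma-activated site (GAS) TTCNNNGAA was present in 4 (6.45%, others 8.47%). The TATA box TATAAA was present in 7 (11.3%, others 14.2%) and the CCAAT box (CCAAT) in 16 (25.8%, others 37.9%). Other interferon-response elements were not sought, so their presence or absence is not known from this search. Each motif was sought on both strands and matches may overlap. The median GC content was 63.0% in members' promoters and 52.7% in the others. The members had to meet a read number, while the other promoters include genes that are not expressed. The sets are thus unlike, and no trait of the region is read from the motif shares or the GC content. A match describes letters, not binding. The promoters of 3 members are shown with matches in capitals, 5′ to 3′ on the gene's strand: *Tspan5* (chr3:138741958-138742257, plus), whose delE6/+ and wild-type values interleave, *Gbp2* (chr3:142620413-142620712, plus), with the most negative delE6/+ value of the coding members at 2 CPM or more, and *Ccn1* (chr3:145649936-145650235, minus), lowest in Insert ASAY.
Tspan5: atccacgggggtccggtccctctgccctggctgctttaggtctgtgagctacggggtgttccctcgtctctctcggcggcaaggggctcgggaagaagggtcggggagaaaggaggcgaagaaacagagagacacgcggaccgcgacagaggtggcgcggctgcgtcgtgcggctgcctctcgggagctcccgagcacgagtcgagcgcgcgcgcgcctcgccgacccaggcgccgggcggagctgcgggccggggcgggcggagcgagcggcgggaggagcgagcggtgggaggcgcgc
Gbp2: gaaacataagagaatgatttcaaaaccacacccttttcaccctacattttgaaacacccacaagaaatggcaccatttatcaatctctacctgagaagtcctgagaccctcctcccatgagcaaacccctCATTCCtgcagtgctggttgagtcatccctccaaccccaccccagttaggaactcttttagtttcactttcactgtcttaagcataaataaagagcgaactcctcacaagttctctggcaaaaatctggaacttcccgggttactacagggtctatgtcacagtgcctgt
Ccn1: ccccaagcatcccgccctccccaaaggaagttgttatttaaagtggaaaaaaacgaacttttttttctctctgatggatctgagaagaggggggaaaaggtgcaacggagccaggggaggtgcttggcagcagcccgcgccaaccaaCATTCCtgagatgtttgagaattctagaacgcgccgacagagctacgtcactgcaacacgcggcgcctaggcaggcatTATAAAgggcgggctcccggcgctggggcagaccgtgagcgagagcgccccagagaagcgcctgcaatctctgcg
Of the 5 motifs sought, the *Gbp2* promoter holds 1 TEAD motif on its reverse strand. The *Ccn1* promoter holds 1 TEAD motif on its reverse strand and 1 TATA box, and the *Tspan5* promoter none of the 5.

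The read number set who counts as a member at the low end. Just inside it were *Gm5857*, with 10 and 11 reads in its highest libraries, and *Clca3a2*, with 10 and 11. Just outside were *Gm6059* and *Clca1*, with 9 as their second highest count. A further 257 genes of the window did not meet the number, and 180 of these had no read in any library.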

How the data were processed

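Poly(A) RNA was sequenced with a strand-specific NEBNext kit. The authors mapped reads to mm10 with STAR 2.7.2a and deposited its whole-number counts per gene, unnormalized and unfiltered, in 3 columns by strand, of which the reverse-strand column was used. STAR's summary lines, 26.2% to 29.0% of reads in the 7 files that hold them, were left out. Of 48440 gene IDs, 48058 matched GENCODE M21.

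The counts were fitted in R 4.3.3 with edgeR 4.0.16 (TMM, filterByExpr with a minimum count of 10 and total of 15, quasi-likelihood test), 1 fit for all 8 libraries with a term for each genotype. The 17049 genes tested were adjusted together (Benjamini-Hochberg), and calls used the study's thresholds, 0.05 for the adjusted p and 0.5 for the log2 fold change. DESeq2 1.42.0 was an alternative. Simulated counts with known changes were used to test the edgeR and DESeq2 fits. With 2 libraries per genotype, p-values measure the spread between these samples. Intervals of position are 1-based on GRCm38. Near copies were sought with blastn 2.17.0 in GENCODE transcripts. Tables and plots used Python 3.11.15, pandas 2.3.3 and matplotlib 3.10.9.

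The members and all lists were chosen with earlier results of these data known. Named are the 8 highest and 8 lowest delE6/+ fold changes and the 8 highest levels among members of at least 2 CPM, the top 3 by level of each role, up to 5 calls with the smallest adjusted p in the comparisons without delE6/+, called paralogues and the genes at each edge. *Znhit6*, *Gbp3*, *Col24a1*, *Gm16060*, *Msh4*, *Adgrl2*, *Gm17501*, *Gm43314* and *Mir186* were named after their values were seen. So were *Rap1gds1*, *Zranb2*, *Lhx8* and *Clca4b*.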

Additional observations from a re-analysis of the deposited data

Results flagged for a closer look

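The change against wild-type differed between Insert ASAY and delE6/delE6 cells in 4 of the 93 tested members, by the direct comparison of these lines in the edgeR quasi-likelihood fit. Of these, 3 were lower and 1 higher, beside 2.38% and 2.79% of all tested genes, so nothing about the members as a set is read from the count. Each difference is given as the Insert ASAY value minus the delE6/delE6 value on the log2 scale. For *Ccn1* the difference was -1.78, from a change of -2.23 in Insert ASAY and -0.45 in delE6/delE6. For *Cth* it was -0.50 (-0.64 and -0.13), for *Ak5* -0.88 (-0.93 and -0.05) and for *Clca3b* 0.60 (0.27 and -0.33). Of these, *Ccn1* kept its call when any 1 library was left out, and the other 3 did not.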

How the results depend on the processing

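The median of the members in delE6/+ against wild-type stayed between -0.616 (without delE6/+ replicate 2) and -0.554 (without wild-type replicate 2) when a library was left out, and the counts of members in the delE6/+ comparisons, the 52 members below all other libraries and the 4 called paralogues stayed within 1.5 times under every alternative run. The tested comparisons were less stable. With the TREAT test against 0.5, members called fell to 1 in delE6/delE6 against wild-type, 4 in Insert ASAY against wild-type and 1 in Insert ASAY against delE6/delE6. With 1 library left out, they ran from 2 to 15, from 11 to 17 and from 1 to 12. The median in delE6/delE6 against wild-type was 0.0425 with at least 10 reads in every library, 0.0424 under DESeq2's Wald test, 0.0464 in a fit of the 2 genotypes alone and 0.00332 to 0.0781 with a library left out. In Insert ASAY against wild-type it was 0.0399, with at least 10 reads in every library, 0.0333 in the fit of 2 genotypes and -0.0451 to 0.0325 with a library left out, so its sign is not fixed. The cause was not tested.

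Correlations of replicate differences between genotypes ran from -0.1003 to 0.0672, so libraries with the same replicate number shared little difference. This cannot say whether they were handled together. With replicate number as a block the counts were 7, 17 and 3 in the tested comparisons, and with the numbers of Insert ASAY and delE6/delE6 crossed, a pairing chosen after seeing the data, the last was 3. Members with few reads, such as *Ak5* and *Mir186*, limit what depth can show.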

Other observations

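Genes of chromosome 3 before the window went the other way in delE6/+ cells. Over 755 tested genes the median log2 fold change against wild-type was 0.39, with 242 called higher and 18 lower by edgeR. Of all 17049 tested genes, 6.60% were called higher and 6.89% lower in the same comparison. In steps of 20 Mb back from the window start the median over genes of at least 2 CPM was 0.59 (71 genes), 0.51 (115 genes), 0.40 (189 genes), 0.37 (48 genes) and 0.15 (53 genes), and then -0.0132 (51 genes) and -0.0333 (23 genes) farthest from it. These genes are no members, and the region was noticed in the same contrast.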
